A study of Mus musculus with 16 samples.

Results

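The genes of fatty acid oxidation and ketone body use were followed in cultured mouse pancreatic islets, the clusters of endocrine cells that hold the insulin-secreting beta cells. The members are 35 genes named by their symbols, from the enzymes that activate a fatty acid to those that use ketone bodies, with 3 transcriptional regulators and the mitochondrial carrier *Ucp2*. Each of the 35 symbols matched 1 of the 52636 Ensembl identifiers in the count table, and all 35 were among the 18587 genes with enough counts to be tested.

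The islets came from male mice aged 12 weeks, of the strain C57BL/6JRj by the labels and C57BL/6NRj by the study's methods. Each library was made from 500 islets pooled from several mice, kept for 10 days in medium with human serum that was renewed at the middle of the culture. There were 4 conditions with 4 libraries each, numbered as replicates 1 to 4, which the study describes as independent experiments: control islets without additions, recombinant mouse IL-1β at 50 pg/mL, sodium butyrate at 0.2 mM, and IL-1β plus butyrate at these concentrations. IL-1β is a pro-inflammatory cytokine that impairs insulin secretion, and the study asked whether butyrate, which gut bacteria release from dietary fibre and which also inhibits histone deacetylases, changes the response of islets to it.

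In beta oxidation a fatty acid is first joined to coenzyme A by an acyl-CoA synthetase, then passed into mitochondria on carnitine by the carnitine palmitoyltransferases, and shortened in a cycle of dehydrogenation, hydration, a further dehydrogenation and thiolysis. The electrons go to the respiratory chain through the electron transfer flavoprotein, very long and branched chains are handled in peroxisomes, and the product acetyl-CoA feeds the citric acid cycle or, mainly in liver, the synthesis of ketone bodies. In the beta cell glucose raises malonyl-CoA, which inhibits the carnitine step, so that less fatty acid is oxidised when glucose is plentiful. *Hadh*, a dehydrogenase of the cycle, is known in beta cells also as an inhibitor of glutamate dehydrogenase, and its loss causes excess insulin secretion.

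A library held 18635943 to 25955943 counts (median 22184715), and the members had 15 to 11753 counts in a library, so that counting error was small for most of them and largest for *Ppara* and *Ppargc1a*. Between libraries of 1 condition the chi-square per gene was 1.72 to 13.5, a value that would be close to 1 from counting error alone. Levels are given in CPM, the counts relative to the total of the library after TMM scaling, and levels of different genes are compared only as CPM per kb of exon. The 9 beta cell markers, among them *Ins1*, *Ins2* and *Mafa*, summed to 214585 to 237394 CPM in control islets and 222989 to 262488 with butyrate. Most of this sum came from *Ins2*, *Ins1* and *Iapp*. With IL-1β the sum was 137903 to 179595, and with both 138251 to 170465. Against control islets 7 of the 9 were lower and 1, *Iapp*, higher with IL-1β. With butyrate 1 was lower and 3 higher, and with both 7 were lower and 1 higher. Butyrate added to IL-1β lowered 2 and raised 0. Of 9 macrophage markers 8 were higher with IL-1β and 1, *C1qa*, was lower, 5 were lower and 0 higher when butyrate was added to IL-1β, and 6 were higher and 1, *C1qa*, lower for both against control. *C1qa* alone had mean levels of 111 CPM in control islets, 79.7 after IL-1β, 51.2 with both and 77.6 with butyrate and so weighed heavily in the sum of the 9, whereas *C1qb* had 3.28, 20.5, 10.7 and 1.78 CPM in the same order. The sum was 129 to 142 CPM in control islets, 182 to 227 with IL-1β, 98.1 to 134 with both and 84.8 to 106 with butyrate, and none of the 9 was at 0 throughout, the lowest being *Itgam* with a mean of 0.111 CPM in control islets. The markers of T cells, endothelial cells, fibroblasts and stellate cells, acinar cells, Schwann cells and adipocytes summed to at most 19.7 CPM per list in any library. The 5 duct markers summed to 125 to 133 CPM in control islets, 126 to 165 with butyrate, 231 to 339.6 with IL-1β and 316 to 584 with both, mainly through *Spp1*. Among the other endocrine cells, the delta cell hormone *Sst* was higher with butyrate alone (log2 fold change 0.55), with butyrate added to IL-1β (0.61) and for both against control (0.68), and the PP cell hormone *Ppy* was called in no comparison. Of 4 alpha cell markers 2 were lower with IL-1β, 2 with butyrate alone, 2 with butyrate added and 3 for both against control, and the 1 call in the other direction was *Gcg*, higher by 0.25 on the log2 scale with butyrate added. In RNA from whole islets, fewer cells of a type and less RNA per cell cannot be told apart, and the part of these shifts in the members' values was not tested.

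The stretches of genome just before the start of 5 members are shown because these genes changed in opposite directions: *Acsl5*, *Cpt1a* and *Cpt1c* were higher with IL-1β, and *Hadh* and *Ppargc1a* were lower. They are from RefSeq on GRCm38.p6, on the strand of the gene, from position -150 up to the RefSeq start with any exonic bases removed. For *Cpt1a* and *Acsl5* the stretch lies inside the gene span given with their values, which begins further upstream at 3322334 and 55251938. For these 2 genes the stretch therefore describes the RefSeq start only. Capitals mark the GC box GGGCGG, a common promoter element, and the nuclear receptor hexamer AGGTCA, the unit that receptors of the PPAR type read in pairs, each on either strand.
Cpt1a, chr19:3323151-3323284, plus strand: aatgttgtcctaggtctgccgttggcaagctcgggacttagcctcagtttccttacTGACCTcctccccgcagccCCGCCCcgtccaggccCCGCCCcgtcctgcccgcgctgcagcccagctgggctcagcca
Cpt1c, chr7:44974852-44975001, minus strand: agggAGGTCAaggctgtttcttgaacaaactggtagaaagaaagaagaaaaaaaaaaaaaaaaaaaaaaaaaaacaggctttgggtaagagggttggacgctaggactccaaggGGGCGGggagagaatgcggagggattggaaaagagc
Acsl5, chr19:55253219-55253368, plus strand: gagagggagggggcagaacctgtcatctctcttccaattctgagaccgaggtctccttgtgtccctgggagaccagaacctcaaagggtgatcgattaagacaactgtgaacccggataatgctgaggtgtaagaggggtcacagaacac
Hadh, chr3:131272102-131272251, minus strand: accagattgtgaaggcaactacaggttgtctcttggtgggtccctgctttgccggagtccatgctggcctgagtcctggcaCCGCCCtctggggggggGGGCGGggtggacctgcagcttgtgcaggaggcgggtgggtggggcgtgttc
Ppargc1a, chr5:51567727-51567875, minus strand: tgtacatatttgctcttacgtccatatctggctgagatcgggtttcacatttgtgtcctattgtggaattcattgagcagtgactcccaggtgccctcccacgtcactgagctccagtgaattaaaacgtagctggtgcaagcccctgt

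*Hadha* and *Hadhb*, which encode the 2 subunits of the mitochondrial trifunctional protein, are read away from each other from the 85 bases between them. This shared stretch is shown because both genes were higher with IL-1β plus butyrate than in control islets, as given with their values.
Hadha-Hadhb, chr5:30155163-30155247, strand of Hadhb: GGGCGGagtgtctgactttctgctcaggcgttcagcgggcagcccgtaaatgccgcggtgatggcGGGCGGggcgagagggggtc

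In the stretches shown, *Cpt1a* held 2 GC boxes and 1 hexamer starting at position -94, *Cpt1c* 1 GC box and 1 hexamer starting at -146, *Hadh* 2 GC boxes and no hexamer, and *Acsl5* and *Ppargc1a* neither motif. RefSeq windows from 250 bases before to 50 after the start were at hand for 30 members, in 32 windows. The GC box was in 24 of the 32 windows (75%), against 57.3% of the 15999 windows of tested genes. The hexamer was in 5 windows (15.6%, against 13%), those of *Acadm*, *Acadvl*, *Cpt1a*, *Cpt1c* and *Echs1*. The hexamer repeated at 1 base distance (AGGTCANAGGTCA, in 0.0438% of windows of tested genes), the extended hexamer TCAAGGTCA (0.294%) and the CRE TGACGTCA (2.81%) were in none of the 32. The extended hexamer and the repeat contain the hexamer. The median GC content of the windows was 60.7% for the members and 59.7% for tested genes. These matches describe letters in a window and were not tied to the changes below by any test.

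With IL-1β, 15 of the 35 members passed an adjusted p under 0.01 against control islets (12 higher and 3 lower), beside 17.8% of all tested genes (11.2% higher and 6.59% lower). The members higher with IL-1β came from most steps of the pathway: *Acsl5*, *Cpt1a*, *Cpt1c*, *Cpt2*, *Acadl*, *Hadhb*, *Eci2*, *Etfb*, *Hsd17b4*, *Ppara*, *Ppard* and *Ucp2*, while *Hadh*, *Oxct1* and *Ppargc1a* were lower. Butyrate alone changed 11 members against control islets (4 higher and 7 lower), beside 19.9% of tested genes (8.53% higher and 11.4% lower). Butyrate added to IL-1β changed 15 members against IL-1β (5 higher and 10 lower), beside 19.5% (8.41% higher and 11.1% lower), and IL-1β plus butyrate changed 16 against control islets (13 higher and 3 lower), beside 30.6% (15.8% higher and 14.8% lower). All 4 shares of the members, 42.9%, 31.4%, 42.9% and 45.7%, were above those of all tested genes, which include many with few counts. The difference between these shares was not tested. The members were chosen with earlier results of these data known, so a higher share is no independent evidence of a response of the set. Among the 9238 genes with a mean of at least 10 CPM, a limit chosen after the values were seen, the shares called were 23.4%, 27.4%, 25.6% and 39.8%, and those of the 31 members in that range were 38.7%, 35.5%, 45.2% and 48.4%.

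The changes were small. No member changed by a log2 fold change of 1 or more in either direction, and the median log2 fold change over the 35 was 0.10, -0.04, -0.02 and 0.08 in these 4 comparisons, against -0.03, 0.01, 0.01 and 0.00 over all genes tested. The split into higher and lower depended on how the libraries were scaled. For IL-1β, 63.0% of the genes called among all tested were higher with TMM, 51.5% with upper-quartile scaling and 79.8% with library size only, and the members split into 12 higher and 3 lower, 11 and 7, and 14 and 2. For butyrate alone 42.9% were higher with TMM and 58.5% with upper-quartile scaling, with the members at 4 higher and 7 lower against 7 and 7. For butyrate added to IL-1β the share went from 43.1% to 57.7% with upper-quartile scaling, and the members from 5 higher and 10 lower to 5 and 4. For both against control it went from 51.6% to 66.9% with library size only, and the members from 13 higher and 3 lower to 17 and 2.

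**Figure D1:**
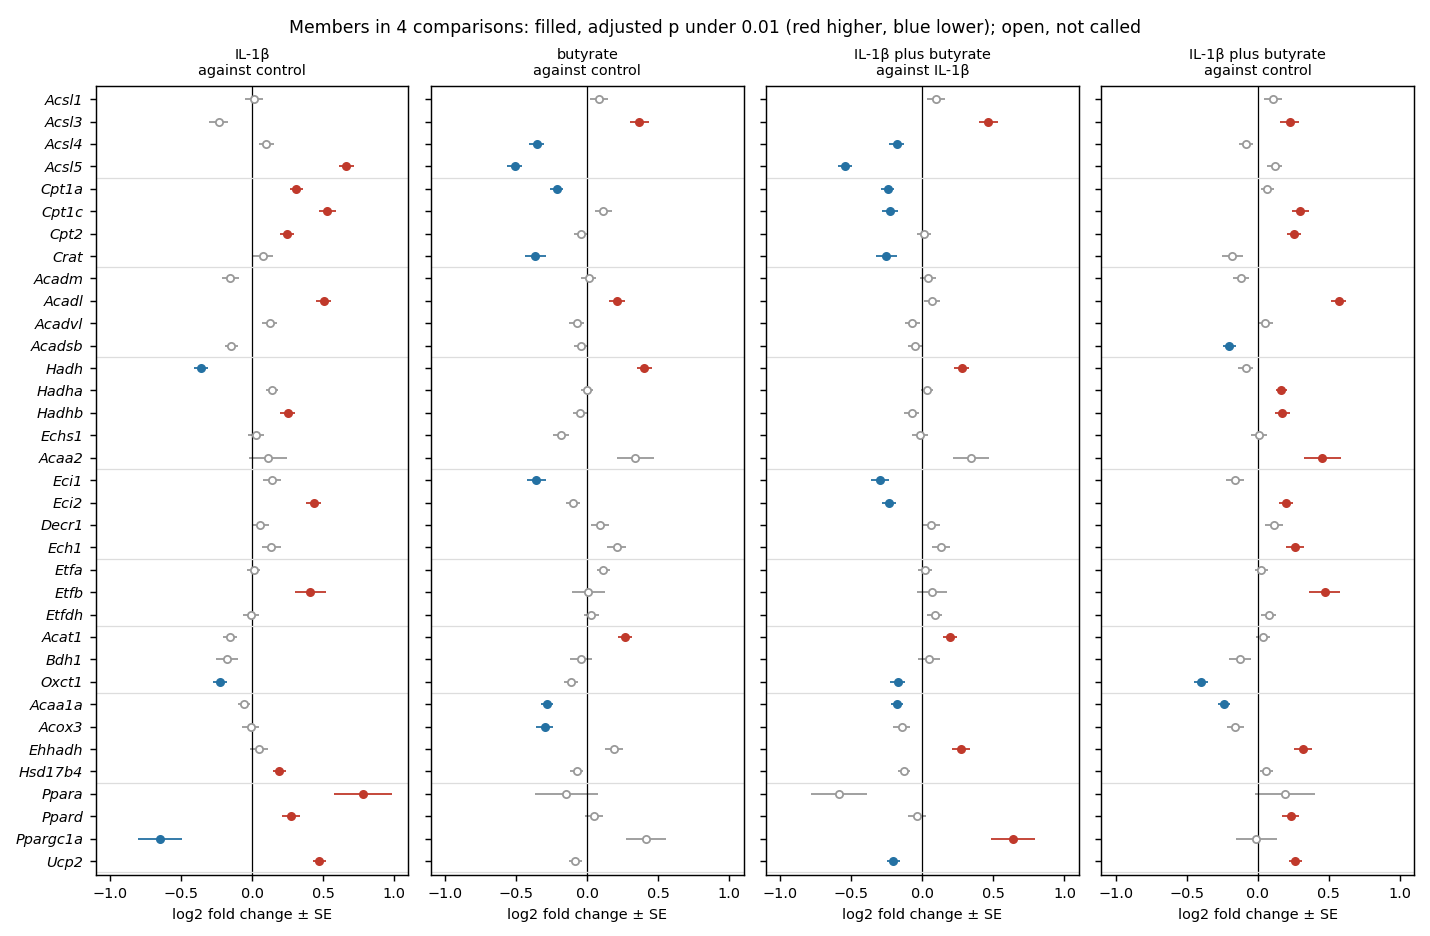
Log2 fold change of each of the 35 members (points, with bars of ± 1 SE from the edgeR fit) in 4 comparisons, in the order of the steps of the pathway. Filled points passed an adjusted p under 0.01 (red higher, blue lower), and the points lie between -0.65 and 0.78, with 12 red and 3 blue for IL-1β against control and 5 red and 10 blue for IL-1β plus butyrate against IL-1β.

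By level, *Hadh* stood highest of the members, with a mean of 75.9 CPM per kb over the 16 libraries, followed by *Ucp2* (47.8), *Etfa* (35.9), *Acat1* (31.6) and *Cpt2* (30.0). The lowest were the regulators *Ppara* (0.335) and *Ppargc1a* (0.416), and the lowest enzyme was *Acsl1* (1.85). Within the acyl-CoA synthetases, the order in control islets was *Acsl5* at 13.1 CPM per kb, *Acsl4* at 11.7, *Acsl3* at 3.71 and *Acsl1* at 1.78. With butyrate alone *Acsl5* and *Acsl4* lay side by side, at 9.18 and 9.11 CPM per kb. With IL-1β they lay apart, at 20.7 and 12.5.

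**Figure D2:**
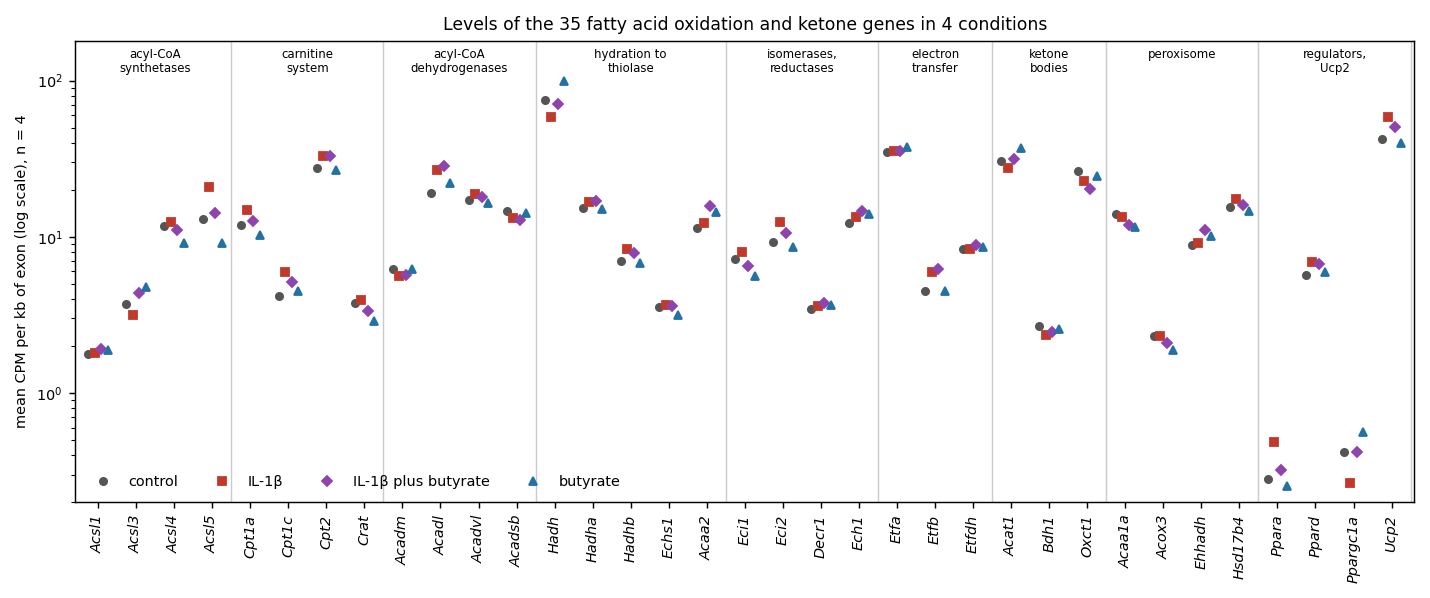
Mean level of each member per condition (n = 4), in CPM per kb of exon on a log axis, grouped by step of the pathway. *Hadh* is highest in each condition, from 58.5 with IL-1β to 99.2 with butyrate, except that *Ucp2* is level with it with IL-1β at 58.5, and *Ppara* and *Ppargc1a* are lowest, under 0.6.

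Among the synthetases, which activate long-chain fatty acids, *Acsl5* rose with IL-1β and fell with butyrate, *Acsl3* rose with butyrate and *Acsl4* fell with it. *Acsl5* (ENSMUSG00000024981, chr19:55251938-55297720), whose product sits on the endoplasmic reticulum and mitochondria, was at 67.3, 63.2, 63.0 and 60.9 CPM in the control libraries, 107, 101, 99.8 and 95.6 with IL-1β, 73.0, 72.9, 64.8 and 65.6 with both, and 46.1, 46.6, 42.9 and 43.0 with butyrate. Every IL-1β library was above every other library, every butyrate library was below every other, and only the control and IL-1β plus butyrate libraries overlapped. Its log2 fold change was 0.66 (adjusted p = 5.6e-11, SE 0.05) with IL-1β, -0.51 (adjusted p = 3.5e-08, SE 0.05) with butyrate alone and -0.54 (adjusted p = 5.6e-09, SE 0.05) with butyrate added to IL-1β. The combination had 69.1 ± 4.5 CPM and control islets 63.6 ± 2.7 (SD, n = 4), a difference that did not pass the threshold (log2 fold change 0.12, adjusted p = 0.065). Exons of *Acsl5* share 404 bases with *Zdhhc6* on the opposite strand, and reads from the shared bases could not be told apart.

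*Acsl3* (ENSMUSG00000032883, chr1:78657825-78707743), known for its place on lipid droplets, was at 16.4, 15.9, 16.1 and 16.1 CPM in control islets, 14.3, 12.9, 14.5 and 13.2 with IL-1β, 19.9, 19.9, 16.6 and 19.1 with both, and 22.2, 20.7, 20.6 and 19.7 with butyrate. The butyrate libraries lay above the control libraries, and those with both lay above those with IL-1β, without overlap. On the log2 scale the change was 0.37 (adjusted p = 9.2e-05, SE 0.07) with butyrate alone, 0.46 (adjusted p = 6.3e-06, SE 0.07) with butyrate added to IL-1β and 0.23 (adjusted p = 0.0068, SE 0.07) for both against control, the last lost in 8 of 23 alternatives. With IL-1β it was -0.24, with an adjusted p of 0.01 after rounding that did not pass. Its exons share 244 bases with *Utp14b* on the same strand.

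*Acsl4* (chrX:142317993-142390535), which prefers arachidonic acid, was at 64.0, 61.4, 63.5 and 63.2 CPM in control islets, 69.0, 67.4, 71.1 and 62.9 with IL-1β, 55.8, 66.8, 55.6 and 60.0 with both, and 49.2, 48.5, 50.4 and 48.8 with butyrate. The butyrate libraries lay below all others, by a log2 fold change of -0.36 against control (adjusted p = 8.9e-06, SE 0.05). Butyrate added to IL-1β gave -0.18 (adjusted p = 0.0097, SE 0.05), with overlapping libraries and a call lost in 17 of 23 alternatives. *Acsl1*, the long-chain synthetase of liver, fat and heart, had mean levels of 18.7 to 20.2 CPM in the 4 conditions and passed in no comparison.

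The carnitine system carries long chains into mitochondria. Of its 4 members, *Cpt1a*, *Cpt1c* and *Cpt2* rose with IL-1β, and butyrate added to IL-1β lowered *Cpt1a*, *Cpt1c* and *Crat*. *Cpt1a* (ENSMUSG00000024900, chr19:3322334-3385733), the malonyl-CoA sensitive enzyme of the outer membrane and usually the controlling step, was at 98.0, 92.0, 89.8 and 86.1 CPM in control islets, 113, 120, 109 and 112 with IL-1β, 96.2, 97.0, 95.0 and 95.3 with both, and 81.5, 75.8, 76.6 and 81.1 with butyrate. The IL-1β libraries were all above the rest, the butyrate libraries all below, and the combination lay within the range of the control libraries. In the edgeR fit the log2 fold change was 0.31 (adjusted p = 5.6e-06, SE 0.05) with IL-1β, -0.22 (adjusted p = 0.00073, SE 0.05) with butyrate alone and -0.24 (adjusted p = 0.00016, SE 0.05) with butyrate added to IL-1β. For both against control it was 0.07 (adjusted p = 0.26).

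*Cpt1c* (ENSMUSG00000007783, chr7:44959372-44974851), a form best known from neurons and with little transferase activity, was at 23.6, 23.8, 23.4 and 22.1 CPM in control islets, 32.9, 33.7, 32.8 and 34.6 with IL-1β, 31.5, 25.8, 28.5 and 28.6 with both, and 25.4, 23.7, 24.5 and 26.8 with butyrate. IL-1β libraries were above those of each other condition, and the combination was spread between them and the control libraries. The fitted log2 fold change was 0.53 (adjusted p = 4.6e-08, SE 0.06) with IL-1β and -0.23 (adjusted p = 0.0029, SE 0.06) with butyrate added, the latter lost in 4 of 23 alternatives, among them upper-quartile scaling (adjusted p = 0.018). It was 0.30 (adjusted p = 0.00013, SE 0.06) for both against control. With butyrate alone it was 0.11 (adjusted p = 0.16), and the interaction of both additions (the butyrate effect in the presence of IL-1β minus that in its absence), -0.34 (SE 0.08), had the smallest unadjusted p of the members for that term, 0.0003, with an adjusted p of 0.086.

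*Cpt2*, the partner enzyme at the inner membrane, had 66.0 ± 2.8 CPM in control islets, 78.3 ± 4.8 with IL-1β, 78.7 ± 2.3 with both and 63.9 ± 2.4 with butyrate (SD, n = 4). It rose with IL-1β by a log2 fold change of 0.24 (adjusted p = 0.00032), and against IL-1β the combination differed by 0.01. *Crat*, which moves short acyl groups including acetyl and butyryl between coenzyme A and carnitine, had 20.3 ± 0.57 CPM in control islets and 15.7 ± 2.2 with butyrate. It fell by 0.37 with butyrate alone on the log2 scale (adjusted p = 0.00046) and by 0.25 with butyrate added to IL-1β (adjusted p = 0.0096, lost in 12 of 23 alternatives).

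**Figure D3:**
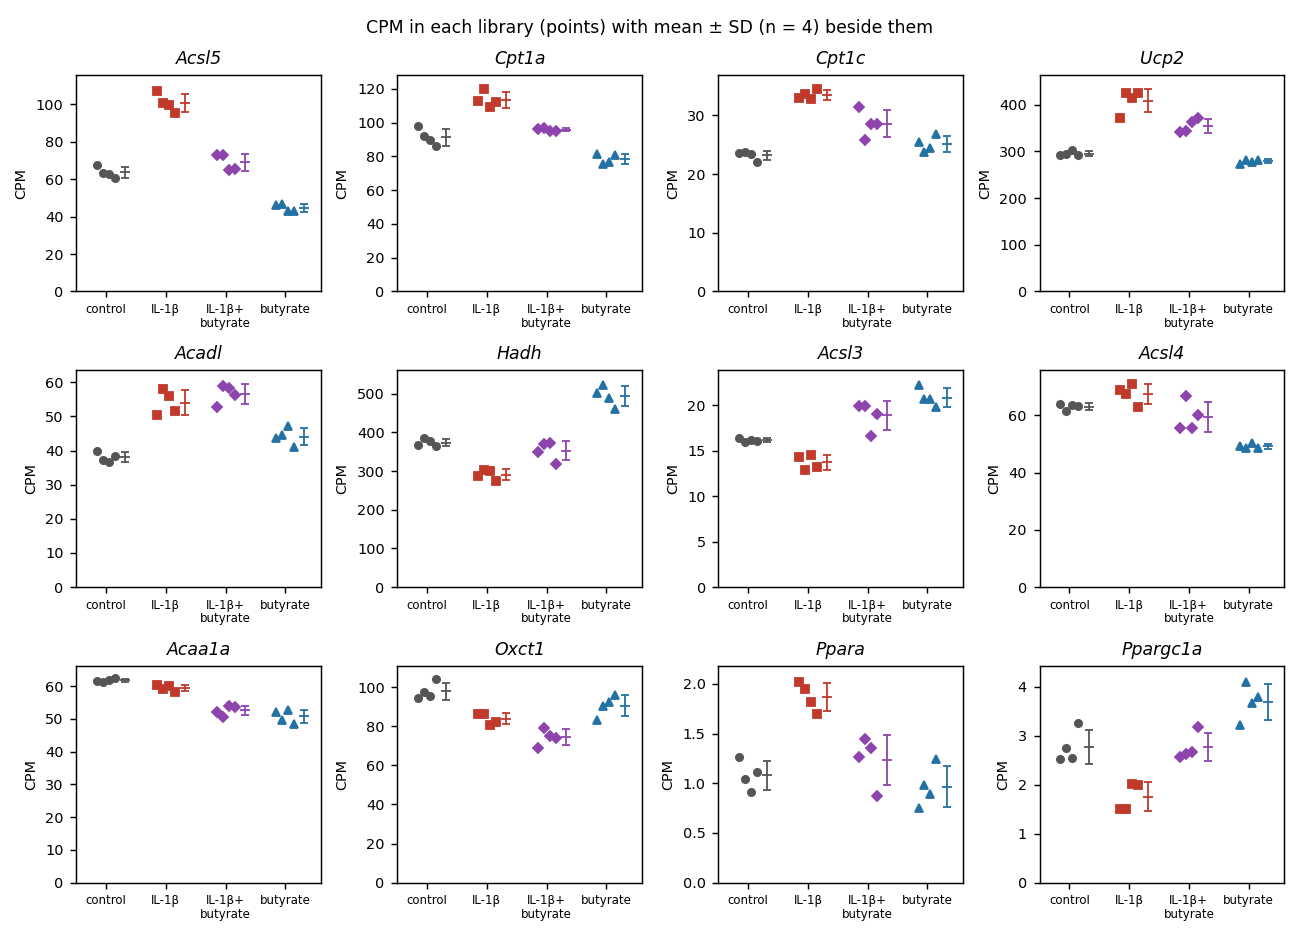
CPM of 12 members in each of the 16 libraries (points), with the mean ± SD of the 4 libraries beside each group, axes from 0. For *Acsl5* and *Cpt1a* the IL-1β libraries lie above and the butyrate libraries below all others, while for *Hadh* the IL-1β libraries lie lowest and the butyrate libraries highest, as they do for *Ppargc1a* except for 1 butyrate library inside the control range.

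The acyl-CoA dehydrogenases take the first electrons from the chain, each over its own range of lengths. *Acadl*, for long chains, rose with IL-1β and stayed at that level with butyrate added, and the other 3 members passed in 1 comparison or none. *Acadl* (chr1:66830839-66863277) was at 39.9, 37.3, 36.6 and 38.4 CPM in control islets, 50.4, 58.1, 56.1 and 51.5 with IL-1β, 52.7, 58.9, 58.5 and 56.2 with both, and 43.5, 44.6, 47.1 and 41.0 with butyrate. The libraries with IL-1β, with or without butyrate, were all above those without it. The increases on the log2 scale were 0.50 (adjusted p = 4.6e-08, SE 0.05) with IL-1β and 0.57 (adjusted p = 2.5e-09, SE 0.05) for both against control, the largest rise of the members in the latter comparison. With butyrate alone it was 0.21 (adjusted p = 0.0049, SE 0.06), a call lost in 6 of 23 alternatives.

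*Acadsb*, for short branched chains, had 105 ± 2.8 CPM in control islets and 91.3 ± 4.6 with both (log2 fold change -0.20, adjusted p = 0.001). *Acadm*, for medium chains, had mean levels of 21.8 to 24.3 CPM, and *Acadvl*, for very long chains, of 43.9 to 50.4 CPM. Neither passed in any comparison, with log2 fold changes from -0.15 to 0.12. *Acadvl* shares 1151 exonic bases with *Dvl2* on the opposite strand.

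In the later steps of the mitochondrial cycle *Hadh* was lower with IL-1β and higher with butyrate, with or without IL-1β. *Hadh* (ENSMUSG00000027984, chr3:131233419-131272101) was at 367, 386, 377 and 365 CPM in control islets, 287, 304, 300 and 274 with IL-1β, 349, 370, 372 and 319 with both, and 503, 522, 488 and 461 with butyrate. The IL-1β libraries were below and the butyrate libraries above all the rest, and the combination overlapped with control. Expressed as log2 fold changes, the effects were -0.36 (adjusted p = 3.7e-06, SE 0.05) with IL-1β, 0.40 (adjusted p = 9.6e-07, SE 0.05) with butyrate alone and 0.28 (adjusted p = 0.00016, SE 0.05) with butyrate added to IL-1β. The combination stood at 352 ± 25 CPM against 374 ± 9.5 in control islets (SD, n = 4), a log2 fold change of -0.08 (adjusted p = 0.21). Of the 9 beta cell markers 7 were lower and 1, *Iapp*, higher with IL-1β. With butyrate alone 3 of these markers were higher and 1 lower, and with butyrate added to IL-1β 0 were higher and 2 lower. Their sum, mainly *Ins2*, *Ins1* and *Iapp*, was 138251 to 170465 CPM with both, within the range with IL-1β. The part of these markers in the level of *Hadh* was not tested.

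*Hadhb*, the thiolase subunit of the trifunctional protein, rose from 46.3 ± 1.4 CPM in control islets to 55.1 ± 3.5 with IL-1β (log2 fold change 0.25, adjusted p = 0.0005) and was at 52.2 ± 3.2 with both. *Hadha*, the other subunit, had 132 ± 3.8 CPM in the control libraries, 149 ± 3.2 with both and 146 ± 5.8 with IL-1β. Its log2 fold change of 0.14 with IL-1β did not pass (adjusted p = 0.014), and that of 0.17 for both against control did (adjusted p = 0.0018). For *Hadhb* the latter was 0.17 too (adjusted p = 0.0081, lost in 10 of 23 alternatives).

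*Echs1*, the short-chain hydratase, had 26 ± 0.40 CPM with butyrate and 29.5 to 30.1 in the other conditions, without passing. *Acaa2*, the mitochondrial thiolase, rose from 17.3 ± 2.3 CPM in control islets to 23.7 ± 3.1 with both (log2 fold change 0.46, SE 0.13, adjusted p = 0.0095), a call lost in 14 of 23 alternatives. In each of the 4 conditions replicate 1 had the lowest level of *Acaa2*, at 14.1, 14.2, 19.1 and 18.7 CPM. With the replicate number as a block in the edgeR model, the adjusted p of *Acaa2* for both against control was 9.7e-09.

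*Eci1* and *Eci2*, isomerases that move double bonds so that unsaturated fatty acids can pass the cycle, both fell with butyrate added to IL-1β. *Eci2* had 51.2 ± 0.97 CPM in control islets, 69.1 ± 4.9 with IL-1β, 58.8 ± 2.6 with both and 47.8 ± 2.1 with butyrate (SD, n = 4). The rise with IL-1β was 0.43 on the log2 scale (adjusted p = 1.4e-07), and butyrate added gave -0.23 (adjusted p = 0.00072). *Eci1* had 15.3 ± 1.0 CPM in control islets and 12.0 ± 0.71 with butyrate. It fell by 0.36 with butyrate alone (adjusted p = 0.00017) and by 0.30 with butyrate added (adjusted p = 0.0009), both on the log2 scale. *Decr1*, a reductase for the same fatty acids, stayed between 13.4 and 14.5 CPM on average and passed in no comparison, and *Ech1*, a dienoyl-CoA isomerase, passed only for both against control (27.8 ± 0.79 and 33.4 ± 3.0 CPM, log2 fold change 0.26, adjusted p = 0.0016).

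Of the electron transfer proteins, *Etfa* and *Etfdh* passed in no comparison, with mean levels of 64.1 to 69.3 CPM and 62.7 to 66.5 CPM. *Etfb*, the partner subunit of *Etfa*, was at 5.32, 5.17, 5.06 and 5.31 CPM in control islets and at 5.48, 8.67, 6.95 and 6.64 with IL-1β. These libraries did not overlap, but 1 of the IL-1β libraries lay close to control. The rise of 0.41 on the log2 scale (adjusted p = 0.0059, SE 0.11) was lost in 8 of 23 alternatives, with an adjusted p of up to 0.047. For both against control it was 0.47 (adjusted p = 0.00085), with 6.86 to 7.72 CPM in the libraries with both. Of its 1164 exonic bases, *Etfb* shares 617 with *Gm45233* and 61 with *Mir7051*, both on the same strand. The part of this overlap in the level of *Etfb* was not tested.

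The ketone body enzymes fell or did not pass with IL-1β, and they differed in their response to butyrate. *Oxct1* (ENSMUSG00000022186, chr15:4026383-4155344), the transferase that activates acetoacetate outside the liver, was at 94.7, 97.7, 95.5 and 104 CPM in control islets, 86.4, 86.2, 80.8 and 82.3 with IL-1β, 69.2, 79.1, 75.0 and 74.1 with both, and 83.4, 90.3, 92.5 and 96.0 with butyrate. The libraries with both lay below all others, and the butyrate libraries overlapped with control. The log2 fold change was -0.22 (adjusted p = 0.0011, SE 0.05) with IL-1β and -0.40 (adjusted p = 2.8e-07, SE 0.05) for both against control, the largest fall of the members in that comparison. Butyrate added to IL-1β gave -0.17 (adjusted p = 0.0095, SE 0.05), a call lost in 12 of 23 alternatives, and *Oxct1* was the 1 member called lower both with IL-1β and with butyrate added to it. It shares 467 exonic bases with *BC037032* on the opposite strand.

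*Bdh1* (chr16:31422280-31458901), which interconverts the ketone bodies acetoacetate and hydroxybutyrate, was at 10.7, 9.21, 10.2 and 11.2 CPM in control islets, 8.89, 9.01, 9.07 and 9.60 with IL-1β, 9.30, 9.89, 8.93 and 9.77 with both, and 10.1, 9.28, 10.3 and 10.4 with butyrate. The 4 groups overlapped, and no comparison passed, with log2 fold changes from -0.17 to 0.05. *Acat1*, the mitochondrial acetoacetyl-CoA thiolase, rose from 115 ± 4.0 CPM in control islets to 138 ± 3.8 with butyrate (log2 fold change 0.27, adjusted p = 0.00013). It rose from 103 ± 5.8 with IL-1β to 118 ± 7.6 with both (0.20, adjusted p = 0.0033, lost in 7 of 23 alternatives), with 1 IL-1β library at 112 CPM inside the range of the combination.

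In peroxisomes, where fatty acids too long or too branched for mitochondria are shortened, *Acaa1a* and *Acox3* fell with butyrate alone, *Ehhadh* rose with butyrate added to IL-1β, and *Hsd17b4* rose with IL-1β. *Acaa1a* (chr9:119339676-119350299), the peroxisomal thiolase, was at 61.6, 61.3, 61.9 and 62.4 CPM in control islets, 60.3, 59.2, 60.1 and 58.2 with IL-1β, 52.1, 50.7, 53.8 and 53.6 with both, and 52.1, 49.7, 52.8 and 48.4 with butyrate. All 8 libraries with butyrate were below all 8 without it. In log2 units the fitted change was -0.28 (adjusted p = 8.9e-06, SE 0.04) with butyrate alone, -0.18 (adjusted p = 0.0021, SE 0.04) with butyrate added to IL-1β and -0.06 (adjusted p = 0.37) with IL-1β. Its exons share 290 bases with *Myd88*, a signalling adaptor of the IL-1 receptor, on the opposite strand.

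*Acox3*, an oxidase for branched chains, fell with butyrate alone from 26.8 ± 1.5 to 21.8 ± 1.8 CPM (log2 fold change -0.30, adjusted p = 0.00038). *Ehhadh*, which carries the hydratase and dehydrogenase of the peroxisome in 1 protein, had 26.4 ± 1.7 CPM in control islets, 27.3 ± 1.8 with IL-1β, 32.9 ± 1.6 with both and 30.0 ± 2.3 with butyrate (SD, n = 4). It rose by 0.27 with butyrate added to IL-1β on the log2 scale (adjusted p = 0.0015, lost in 2 of 23 alternatives) and by 0.32 for both against control (adjusted p = 0.00014). *Hsd17b4*, the corresponding protein for branched chains, rose from 52.4 ± 1.3 to 59.8 ± 2.0 CPM with IL-1β (0.19, adjusted p = 0.0018).

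Among the regulators, *Ppara* rose and *Ppargc1a* fell with IL-1β, both from low levels. *Ppara* (ENSMUSG00000022383, chr15:85734983-85802819), the fatty acid receptor that switches on oxidation genes in liver, was at 1.26, 1.04, 0.908 and 1.11 CPM in control islets, 2.02, 1.95, 1.81 and 1.70 with IL-1β, 1.26, 1.44, 1.36 and 0.867 with both, and 0.753, 0.977, 0.888 and 1.25 with butyrate. Only the IL-1β libraries stood apart from the rest. The log2 fold change with IL-1β was 0.78 (adjusted p = 0.0042, SE 0.20), the largest of the members and also the one with the largest SE, and it was lost in 4 of 23 alternatives, with an adjusted p of up to 0.02. Butyrate added to IL-1β gave -0.59 (adjusted p = 0.025, SE 0.20), which did not pass.

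*Ppargc1a* (ENSMUSG00000029167, chr5:51454250-51567726), the coactivator of mitochondrial genes, was at 2.52, 2.75, 2.53 and 3.25 CPM in control islets, 1.5, 1.51, 2.02 and 1.98 with IL-1β, 2.56, 2.63, 2.67 and 3.18 with both, and 3.21, 4.09, 3.66 and 3.79 with butyrate. The IL-1β libraries lay below all others, the libraries with both lay within the range of the control libraries, and 1 butyrate library fell inside that range. The effect on the log2 scale was -0.65 (adjusted p = 0.0023, SE 0.16) with IL-1β and 0.64 (adjusted p = 0.0025, SE 0.16) with butyrate added, calls lost in 4 and 3 of 23 alternatives. With butyrate alone 0.41 did not pass (adjusted p = 0.028). *Ppard*, the most widely expressed of the PPAR receptors, rose from 43.0 ± 2.6 to 51.8 ± 1.4 CPM with IL-1β (0.27, adjusted p = 0.0011) and stayed at 50.5 ± 1.8 with both.

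*Ucp2* (chr7:100493337-100502020), a carrier of the inner mitochondrial membrane named for uncoupling, which is also found in macrophages, was at 291, 294, 303 and 291 CPM in control islets, 371, 425, 414 and 424 with IL-1β, 342, 343, 363 and 371 with both, and 273, 281, 277 and 282 with butyrate. The 4 conditions did not overlap, in the order butyrate, control, both and IL-1β, although the highest library with both and the lowest with IL-1β each rounded to 371 CPM and the step from control to butyrate (-0.08, adjusted p = 0.19) did not pass. The fitted change in log2 units was 0.47 (adjusted p = 5.9e-09, SE 0.05) with IL-1β, -0.20 (adjusted p = 0.0011, SE 0.05) with butyrate added and 0.27 (adjusted p = 3e-05, SE 0.05) for both against control. The second was lost in 2 of 23 alternatives, one of them upper-quartile scaling with an adjusted p of 0.015. Of the 9 macrophage markers, 8 were also higher and 1 lower with IL-1β, 5 were lower with butyrate added, and 6 were higher and 1 lower for both against control, and their part in the level of *Ucp2* was not tested. Its exons share 305 bases with *Dnajb13* on the opposite strand.

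Seen over all comparisons, 27 members were called at least once and 8 never: *Acsl1*, *Acadm*, *Acadvl*, *Echs1*, *Decr1*, *Etfa*, *Etfdh* and *Bdh1*. This count and the others below over several comparisons were not set beside the same counts over all tested genes. They describe single members and not the members as a set. Of the 15 members called with IL-1β, 8 were called again when butyrate was added. In 5 of these the rise with IL-1β met a fall with butyrate (*Acsl5*, *Cpt1a*, *Cpt1c*, *Eci2* and *Ucp2*), in 2 a fall met a rise (*Hadh* and *Ppargc1a*), and *Oxct1* fell both times. No member rose both times. Both comparisons contain the IL-1β libraries, so opposite signs between them are no independent evidence of a reversal. Of the 7 members with opposite calls, *Acsl5*, *Cpt1a*, *Hadh* and *Ppargc1a* were not called for both against control, while *Cpt1c*, *Eci2* and *Ucp2* stayed higher, by log2 fold changes of 0.30, 0.20 and 0.27. The other 7 members called with IL-1β, *Cpt2*, *Acadl*, *Hadhb*, *Etfb*, *Hsd17b4*, *Ppara* and *Ppard*, were not called with butyrate added.

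Butyrate had calls in the same direction with and without IL-1β for 9 members: *Acsl3*, *Hadh* and *Acat1* higher, and *Acsl4*, *Acsl5*, *Cpt1a*, *Crat*, *Eci1* and *Acaa1a* lower. For no member were these calls opposite, but the shares of all tested genes with calls in the same or in opposite directions were not set beside these counts. *Acadl* and *Acox3* were called with butyrate alone only, and *Cpt1c*, *Eci2*, *Oxct1*, *Ehhadh*, *Ppargc1a* and *Ucp2* with butyrate added to IL-1β only. This interaction was itself tested with edgeR, and 0 of the 35 members passed, beside 0.0968% of all tested genes. At an unadjusted p under 0.05 in the edgeR test there were 3 of the 35 members, beside 1362 of the 18587 tested genes. These 3 were *Cpt1c* (-0.34), *Acsl4* (0.18) and *Echs1* (0.17), and DESeq2 called 0 members too. The differences ranged from -0.44 for *Ppara* (SE 0.30) to 0.22 for *Ppargc1a* (SE 0.21), the members with the widest errors.

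Other genes of the pathway were read from a list of 84 symbols, of which 83 were in the table and 75 were tested. With IL-1β 25 of the 75 were called (19 higher and 6 lower), and with butyrate alone 22 (12 and 10). With butyrate added to IL-1β the count was 23 (12 and 11), and for both against control 29 (20 and 9). The shares were 33.3%, 29.3%, 30.7% and 38.7% in this order, beside 17.8%, 19.9%, 19.5% and 30.6% of all tested genes. Among genes with a mean of at least 10 CPM they were 23.4%, 27.4%, 25.6% and 39.8%. The list was chosen with earlier results of these data known, and these differences were not tested. Unlike the members, some of the 75 genes changed by a log2 fold change of at least 1, and 4 of these are described. *Fabp5*, a fatty acid binding protein known from skin, fat and macrophages, was at 0.840, 1.33, 1.53 and 1.28 CPM in control islets, 6.57, 10.6, 7.46 and 9.27 with IL-1β, 2.84, 4.33, 3.20 and 3.90 with both, and 1.46, 1.95, 1.1 and 1.08 with butyrate. The IL-1β libraries and those with both each stood clear of the rest. Its log2 fold changes were 2.76 (adjusted p = 2.8e-11, SE 0.19) with IL-1β and -1.26 (adjusted p = 2.2e-06, SE 0.16) with butyrate added, beside macrophage markers of which 8 of 9 were higher and 1 lower with IL-1β and 5 of 9 lower with butyrate added, and their part in it was not tested.

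*Acacb*, the acetyl-CoA carboxylase whose malonyl-CoA restrains the carnitine step at mitochondria, was at 1.49, 1.46, 1.53 and 1.75 CPM in control islets, 0.827, 1.61, 1.35 and 1.52 with IL-1β, 6.5, 5.22, 5.74 and 5.06 with both, and 5.68, 5.06, 5.38 and 5.38 with butyrate. All libraries with butyrate were above all without it. The fit gave a log2 fold change of 1.78 (adjusted p = 7.7e-10, SE 0.15) with butyrate alone and 2.07 (adjusted p = 9.5e-11, SE 0.15) with butyrate added to IL-1β. *Cpt1a*, the enzyme that malonyl-CoA inhibits, was lower in the same 2 comparisons, by the smaller amounts given above.

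*Acot9*, a mitochondrial acyl-CoA thioesterase, rose with IL-1β from 3.09 ± 0.34 to 7.45 ± 0.54 CPM (1.26, adjusted p = 3e-09) and was at 6.86 ± 0.92 with both. *Angptl4*, a secreted inhibitor of lipoprotein lipase and a classic PPAR target, rose from 0.605 ± 0.30 to 1.21 ± 0.18 CPM with butyrate alone (1.00, SE 0.28, adjusted p = 0.0079).

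*Acads*, the dehydrogenase that acts on butyryl-CoA itself, rose with butyrate from 12.7 to 16.6 CPM (0.39, adjusted p = 5.4e-05) and from 15.8 with IL-1β to 21.7 with both (0.46, adjusted p = 2.8e-06). *Pdk4*, a kinase that holds back pyruvate oxidation, rose from 27.5 to 42.0 CPM with butyrate (0.61, adjusted p = 4.5e-08) and from 25.3 to 44.7 with butyrate added to IL-1β (0.82, adjusted p = 3e-10). These 2 genes, like *Plin2* and *Crot*, were picked for mention after their values were seen. *Plin2*, the coat protein of lipid droplets, rose with IL-1β from 12.8 to 23.2 CPM (0.86, adjusted p = 3.1e-06), and *Crot*, the carnitine octanoyltransferase of peroxisomes, rose from 37.8 to 56.0 CPM (0.57, adjusted p = 1.3e-09) and fell to 43.2 with butyrate added (-0.37, adjusted p = 2.2e-06).

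**Figure D4:**
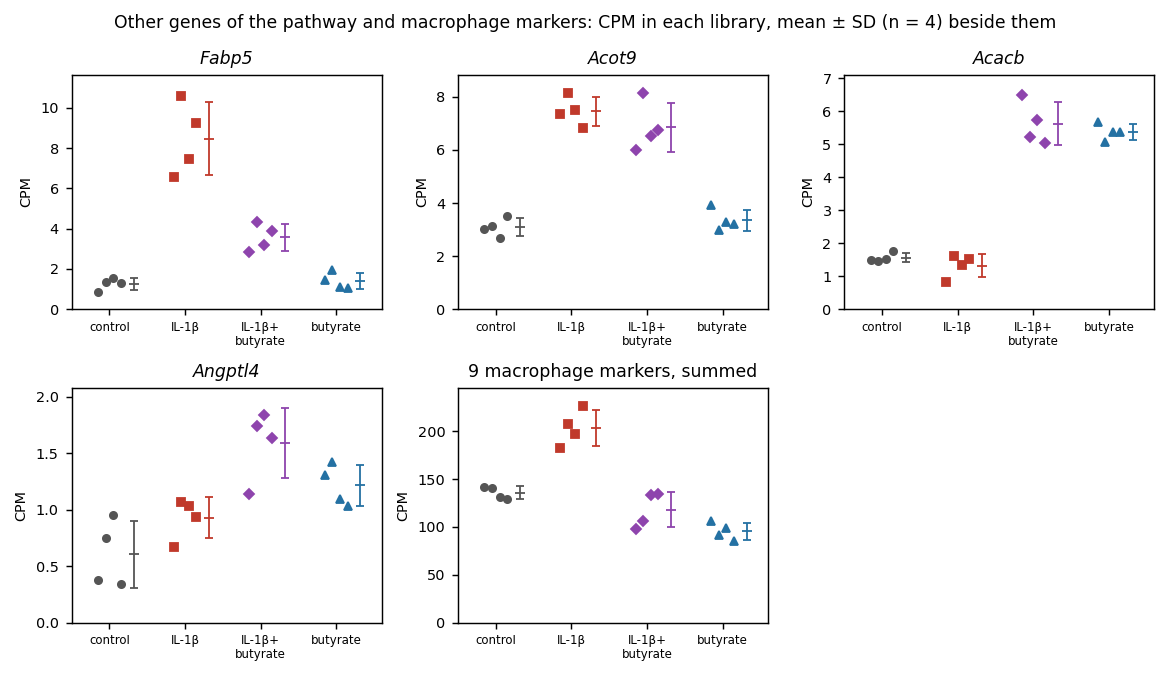
CPM in each of the 16 libraries (points), with the mean ± SD of the 4 libraries beside each group, for 4 pathway genes outside the 35 members and for the sum of 9 macrophage markers, axes from 0. *Fabp5* and the macrophage sum are highest with IL-1β, while *Acacb* is above 5 CPM in the 8 libraries with butyrate and under 2 CPM in the 8 without.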

How the data were processed

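RNA sequencing of mouse islets in 4 conditions (4 libraries each) was analysed from the counts that the authors deposited. The authors made single-end libraries (NEBNext Ultra II kit, Illumina sequencer), mapped reads to GRCm38 (mm10; GRCm38.p5 in the submitters' processing notes) with STAR 2.5.3a and counted reads per Ensembl gene. The deposited counts are whole numbers without normalization. The annotation release, the strand setting and any read filter are not given in the sources used here, so reads in exons shared with a gene on the opposite strand were not separated. The table held 0 columns of other samples.

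Symbols, positions, exon lengths and overlaps were taken from GENCODE M21 (52489 of 52636 identifiers found). In R 4.3.3, edgeR 4.0.16 filtered low counts (filterByExpr by condition, 18587 genes left) and scaled by TMM. It fitted 1 robust quasi-likelihood model of the 4 conditions, without a term for the replicate number, to all 16 libraries. Calls were made at a Benjamini-Hochberg adjusted p (the value printed) below 0.01, adjusted over the whole set of genes tested. The procedure was tested on simulated data. The alternatives were 3 other scalings, DESeq2 1.42.0, no filter, only the conditions compared, each library left out, a replicate block and a threshold of 0.05, the last not counted among the 23 alternatives given for single genes.

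The members and lists were chosen with earlier results of these data known. Per-library values are given for the 4 called members with the smallest adjusted p in each of 3 comparisons and for *Cpt1a*, *Hadh*, *Bdh1*, *Oxct1*, *Ppara*, *Ppargc1a* and *Ucp2*, and other pathway genes are named at a log2 fold change of at least 1, with exceptions marked and 1 such gene not reported here. Each library holds pooled islets, so p-values measure the spread between pools and not between mice.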

Additional observations from a re-analysis of the deposited data

Results flagged for a closer look

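Each member was examined for a library that stood apart from the other 3 of its condition, with Dixon's gap ratio, in 140 groups of 4 libraries. Chance alone sets apart about 1 group in 20, and 8 of 140 groups were set apart. IL-1β replicate 1 was one of them for 3 genes: *Acaa2* was at 14.22 CPM beside 19.92 to 20.3 in the other IL-1β libraries, *Ech1* at 26.32 beside 31.58 to 32.34, and *Eci1* at 17.37 beside 16.69 to 16.8. For *Acaa2* replicate 1 was also the lowest of the other 3 conditions, though not set apart there. *Acat1* was at 111.9 CPM in IL-1β replicate 2, beside 99.32 to 101.2, which is the library that overlapped with the combination.

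In control islets *Acsl1* was at 17.05 CPM in replicate 2, beside 19.18 to 19.35, and *Crat* at 21.12 in replicate 3, beside 19.9 to 20.06. In butyrate islets *Decr1* was at 15.52 CPM in replicate 1, beside 13.76 to 13.86, and *Echs1* at 25.36 in replicate 2, beside 26.13 to 26.22. *Acsl1*, *Decr1* and *Echs1* were called in no comparison. The interaction of IL-1β and butyrate passed for 0 members with edgeR and with DESeq2, with 3 members at an unadjusted p under 0.05 by each tool. Of the 18587 tested genes, 1362 with edgeR and 1172 with DESeq2 had such a p.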

How the results depend on the processing

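The number of members called stayed within 1.5 times the value reported under the alternatives tried, except that upper-quartile scaling gave 9 members (5 higher and 4 lower) in place of 15 for IL-1β plus butyrate against IL-1β. Leaving out 1 library gave 12 to 16 members for IL-1β against control, 10 to 13 for butyrate alone, 10 to 14 for butyrate added to IL-1β, 11 to 16 for both against control, and 0 for the difference between the butyrate effects. At an adjusted p under 0.05 the counts were 20, 15, 17, 17 and 0. The shares of all tested genes called at this threshold or with 1 library left out were not set beside these counts. Of 57 calls of single members, 35 were kept in all 23 alternatives, 22 were lost in at least 1, and 0 changed sign. The calls lost most often were *Acsl4* (17 of 23) with butyrate added to IL-1β and *Acaa2* (14 of 23) for both against control.

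The replicate number was left out of the main fit because not every correlation of deviations between libraries with the same number exceeded 0.1. These correlations were 0.053 to 0.397, and over 0.1 in 17 of 24 pairs. Their median was 0.118, against -0.04 between libraries with different numbers (range -0.293 to 0.17). Of the 16 libraries, 13 correlated best with one of their own number. Libraries of the same number thus tended to deviate together, and the calls reported come from a fit that leaves this out. With the replicate block the members called were 19, 14, 16, 16 and 0, and the adjusted p of *Acaa2* for both against control was 9.7e-09. Over all tested genes the block raised the calls from 3311, 3697, 3629, 5688 and 18 to 4537, 4879, 4983, 6899 and 132. Small changes in genes of few counts, such as *Ppara* and *Ppargc1a*, are limited by depth and by 4 libraries per condition.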
